A study of Mus musculus with 12 samples.

Results

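The genes examined here carry cholesterol through the cell, from its synthesis through sensing, transport and storage to export and conversion into oxysterols. They are 35 genes chosen by name, 7 enzymes of the mevalonate steps, 11 of the squalene and sterol steps, 8 regulators of sterol sensing and of the liver X receptors (LXR), 5 genes of intracellular transport and storage, 2 efflux transporters and 2 enzymes of oxysterol synthesis. All 35 were found among the 39756 genes of the deposited count table, and all 35 had enough counts to be among the 17558 genes tested. The RNA came from brain hemispheres of 12 young adult male C57BL/6J mice, 4 in each group, and from the ischemic hemisphere in the mice with occlusion. Sham mice had sham surgery and saline by mouth. Vehicle mice had saline by mouth and tMCAO, a stroke model that closes the middle cerebral artery for a time and then lets the blood flow again. LJP mice had the same occlusion and were given LJP, a polysaccharide of the brown alga Laminaria japonica, by mouth before and after surgery. After a dose test the study chose the middle dose for its later experiments, but neither the dose nor the time point is stated for the sequenced mice in the sources used here, and all 12 libraries carry the same batch label. A hemisphere is a mixture of injured and spared tissue and of many cell types, so a lower level can mean fewer cells of a type or less RNA per cell, which cannot be told apart in bulk RNA.

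Brain cholesterol does not come from the blood, because lipoproteins do not cross the blood-brain barrier, so cells of the brain make their own from acetyl-CoA through mevalonate, squalene and lanosterol. When sterols in the endoplasmic reticulum fall, the escort protein Scap carries the transcription factors Srebf1 and Srebf2 to the Golgi for cleavage, and the cleaved factors switch on synthesis genes, while Insig proteins hold Scap back when sterols are plentiful. When sterols or oxysterols rise, the LXR proteins Nr1h2 and Nr1h3 switch on export genes such as Abca1 and Abcg1. Cells that engulf myelin and dead cells take in much cholesterol, which lysosomal Lipa, Npc1 and Npc2 release for storage by Soat1 or for export.

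In the Vehicle group Lipa and Npc2, which free cholesterol in lysosomes, Soat1, which esterifies it for storage, and the efflux transporter Abca1 rose, and the oxysterol enzyme Cyp46a1 fell. Levels below are CPM, counts scaled to the normalised library size, and a gene was called changed at an adjusted p below 0.05 in edgeR's quasi-likelihood test over all genes tested. Of the 35 genes, 15 differed between the Vehicle and Sham groups, 11 higher and 4 lower, against a background of 39.9% of all genes tested (22.7% higher and 17.3% lower). The share of the 35 genes called, 42.9%, was near that background. The 15 include Ch25h, which passed the filter on low counts only through the groups in which it was high, and of the other 34 genes 14 were called (41.2%), 10 higher and 4 lower. By role, 4 of 5 transport and storage genes and 1 of 2 efflux genes rose, 1 oxysterol enzyme rose and 1 fell, and of 18 synthesis enzymes 3 rose and 2 fell. The Sham and Vehicle mice did not overlap for 12 genes that were higher and 5 that were lower in the Vehicle group, where the background was 39.5% of all genes (20.7% higher and 18.8% lower). The median log2 fold change over the 35 genes was 0.20, against 0.00 over all genes tested. It was 0.06 without Vehicle mouse 1, 0.16 without Vehicle mouse 2 and -0.02 without both. Between the LJP and Vehicle groups 0 of the 35 genes were called, and between the LJP and Sham groups 4 were called, all higher. Some other fits of LJP and Sham, given below, also called lower genes.

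**Figure D1:**
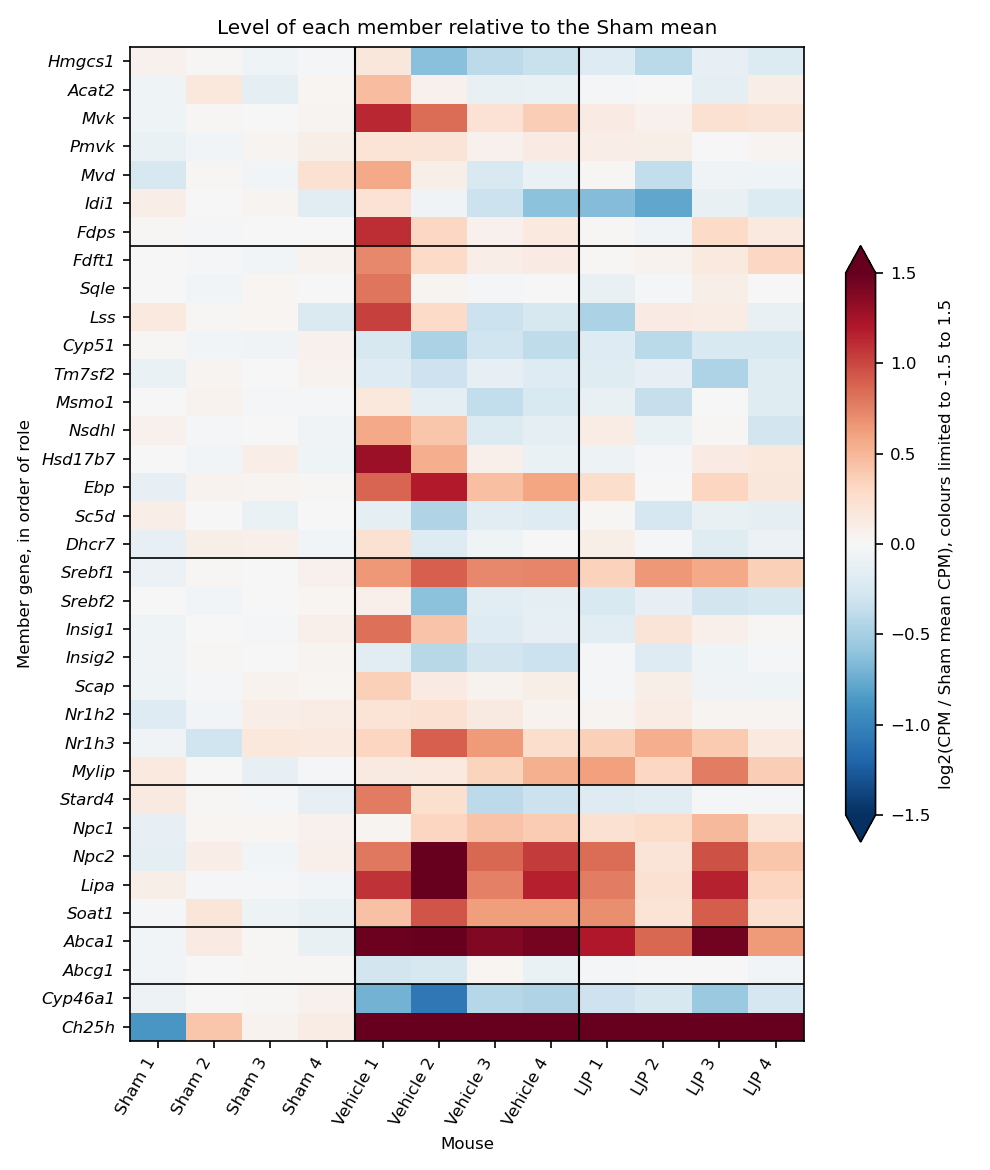
The heatmap has a row for each of the 35 genes in order of role and a column for each of the 12 mice, with colour for log2 of CPM over the Sham mean, limited to -1.5 to 1.5. Abca1 and Ch25h are high in all Vehicle and LJP mice, and the red block in the synthesis enzymes is in the column of Vehicle mouse 1.

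Total counts ranged from 17960353 to 22216315 per mouse, and a floor of 3 counts corresponds to 0.129 to 0.173 CPM. Vehicle mice 1 and 2 stood apart from the other mice on the first principal component, which held 60.3% of the variance, with coordinates of 69.6 and 113 against 13.7 and 27.5 for Vehicle mice 3 and 4. For many genes below the value without 1 or both of these mice is given beside the value with all mice. Neuron markers were abundant in every hemisphere, at summed levels of 5285 to 5949 CPM in the Sham group. Levels of different genes were compared as TPM, in which counts are divided by gene length. On that scale Cyp46a1 was the most abundant of the 35 genes in the Sham group, at 353 ± 10.7 TPM (SD, n = 4), followed by Srebf2 at 207 ± 2.61 TPM and Hmgcs1 at 201 ± 8.73 TPM, and the last pair lay within their spread. Ch25h was the least abundant at 1.30 ± 0.43 TPM, followed by Nr1h3 at 5.0 ± 0.69 TPM.

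The mevalonate steps turn acetyl-CoA into farnesyl diphosphate. Mvk, the kinase that phosphorylates mevalonate, was the only enzyme of the 7 to pass the test in the Vehicle group, and it rose. It measured 17.2, 18.1, 18 and 18.4 CPM in the Sham mice, 39.4, 32.1, 20.9 and 23.1 CPM in the Vehicle mice and 19.6, 18.8, 21.0 and 20.5 CPM in the LJP mice. Every Vehicle mouse lay above every Sham mouse, with Vehicle mice 1 and 2 far above the other 2. Its log2 fold change between the Vehicle and Sham groups was 0.69 (SE 0.16, adjusted p = 0.0065 in edgeR), and without Vehicle mice 1 and 2 it was 0.29 (adjusted p = 0.029).

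Hmgcs1, which makes HMG-CoA from acetoacetyl-CoA and acetyl-CoA, measured 230, 222, 210 and 218 CPM in the Sham mice and 247, 143, 168 and 175 CPM in the Vehicle mice. Vehicle mouse 1 was the highest of all 12 mice and the other 3 Vehicle mice lay below every Sham mouse. The log2 fold change was -0.26 (SE 0.14, adjusted p = 0.14), and without Vehicle mouse 1 it was -0.44 (adjusted p = 0.0045). In the LJP mice Hmgcs1 measured 193, 166, 202 and 191 CPM, below all Sham mice.

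Fdps, the synthase of farnesyl diphosphate, ranged from 37.9 to 38.9 CPM in the Sham group and from 40.2 to 82.7 CPM in the Vehicle group, without overlap, with a log2 fold change of 0.47 (SE 0.19, adjusted p = 0.064). It passed the test without Vehicle mouse 3 or Vehicle mouse 4, but was 0.18 (adjusted p = 0.16) without Vehicle mouse 1 and 0.098 without Vehicle mice 1 and 2. In the GENCODE annotation, 26.7% of its 4208 exon bases lie in another gene on the same strand. That gene is absent from the deposited counts, where Fdps has a length of 1461 bases, so the share describes the annotation and not these counts. Idi1, the isomerase of isopentenyl diphosphate, measured 14, 13, 13.4 and 11.7 CPM in the Sham mice, 15.1, 12.6, 10.4 and 8.51 CPM in the Vehicle mice and 8.31, 7.62, 12.1 and 11.3 CPM in the LJP mice. Acat2, Pmvk and Mvd, which carry out the thiolase, phosphomevalonate kinase and decarboxylase steps, had log2 fold changes of 0.10, 0.15 and 0.11 between the Vehicle and Sham groups, with adjusted p-values of 0.56, 0.13 and 0.61.

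The squalene and sterol steps join farnesyl units into squalene, close the ring to lanosterol and trim lanosterol to cholesterol. Ebp, the isomerase that shifts the double bond of the sterol ring, rose in the Vehicle group. It measured 9.0, 10.2, 10.1 and 9.95 CPM in the Sham mice, 17.9, 22.3, 13.4 and 14.8 CPM in the Vehicle mice and 11.8, 9.76, 12.3 and 11.0 CPM in the LJP mice. The Vehicle mice lay above all other 8 mice, and the LJP and Sham mice overlapped. The log2 fold change between the Vehicle and Sham groups was 0.80 (SE 0.15, adjusted p = 0.0019), and without Vehicle mice 1 and 2 it was 0.52.

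Cyp51, the lanosterol demethylase, fell by 0.35 on the log2 scale in the Vehicle group (SE 0.07, adjusted p = 0.0036 in edgeR). It measured 57.8, 55.4, 54.8 and 59.7 CPM in the Sham mice, 48.2, 40.9, 46.1 and 43.8 CPM in the Vehicle mice and 49.7, 43.1, 48.5 and 48.7 CPM in the LJP mice. All Vehicle and LJP mice lay below all Sham mice, and the log2 fold change without Vehicle mice 1 and 2 was -0.35. Sc5d, the lathosterol desaturase, fell by 0.23 on the log2 scale (SE 0.09, adjusted p = 0.047), from a range of 50.7 to 57.9 CPM in the Sham group to 39.7 to 49.1 CPM in the Vehicle group. Its call was lost when any Sham mouse, Vehicle mouse 2 or 4 or LJP mouse 3 or 4 was left out, with adjusted p-values of up to 0.13.

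Fdft1, the squalene synthase, rose by 0.33 on the log2 scale (SE 0.12, adjusted p = 0.048), from 75.5 to 80.2 CPM in the Sham group to 83.0 to 128 CPM in the Vehicle group. When a mouse was left out this call was kept only without Vehicle mouse 3 or Vehicle mouse 4, it was also kept with library size scaling (adjusted p = 0.020), and without Vehicle mouse 1 the log2 fold change was 0.17 (adjusted p = 0.12). In the GENCODE annotation 18.3% of its exon bases lie opposite exons of Ctsb, a lysosomal protease with 245110 counts over all mice against 20446 for Fdft1. Without a stated strand setting the reads of that stretch cannot be assigned.

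The other 7 sterol enzymes did not pass the test between the Vehicle and Sham groups. Hsd17b7, a sterol ketoreductase, ranged from 18 to 20.3 CPM in the Sham group and from 17.6 to 45.9 CPM in the Vehicle group (adjusted p = 0.077). It too passed without Vehicle mouse 3 or 4, but its log2 fold change of 0.56 was 0.20 (adjusted p = 0.28) without Vehicle mouse 1 and -0.018 without Vehicle mice 1 and 2. Lss, which closes the lanosterol ring, ranged from 26.3 to 33.6 CPM and from 24.4 to 62.0 CPM, and its log2 fold change of 0.30 was -0.061 without Vehicle mouse 1. Sqle, the squalene epoxidase, ranged from 55.5 to 58.4 CPM in the Sham group, and only Vehicle mouse 1, at 99.7 CPM, lay well above that range, with the other Vehicle mice between 56.7 and 59.0 CPM. The log2 fold changes of Tm7sf2, Msmo1, Nsdhl and Dhcr7, a sterol reductase, a methyl sterol oxidase, a sterol dehydrogenase and the last reductase of the pathway, were -0.21, -0.13, 0.20 and -0.0028 (adjusted p-values of 0.11, 0.35, 0.34 and 0.98). Tm7sf2, Hmgcs1 and Scap share 12.1%, 12.1% and 13.2% of their GENCODE exon bases with another gene, which for Hmgcs1 and Scap is absent from the deposited counts.

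The synthesis enzymes had a pattern by mouse that the group means do not show. Vehicle mouse 1 had the highest level of all 12 mice in 14 of 18 enzymes, where it was the highest in 13.1% of all genes tested, and in 4 of the other 17 cholesterol genes. Its level exceeded the mean of the other 3 Vehicle mice in 18 of 18 enzymes, by a ratio of 1.01 for Tm7sf2 to 2.13 for Lss (median 1.43), as it did in 7 of the other 17 genes. Averaged over the 18 enzymes, the log2 difference from the Sham mean was 0.50 in Vehicle mouse 1 and 0.11 in Vehicle mouse 2, but -0.09 and -0.07 in Vehicle mice 3 and 4. In the Sham mice this average lay between -0.01 and 0.01, and in the LJP mice between -0.14 and -0.0021.

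With all 4 Vehicle mice, 11 of 18 enzymes had a positive log2 fold change between the Vehicle and Sham groups, as 50% of all genes tested did, with a median of 0.13. Without Vehicle mouse 1, 8 of 18 were positive and the median was -0.06. Without Vehicle mice 1 and 2, 5 of 18 were positive and the median was -0.14. Over the 35 genes, 15 were called without Vehicle mouse 1 (10 higher and 5 lower), against 34.5% of all genes, and 17 without both mice (10 higher and 7 lower), against 29.7%. Without both mice Hmgcs1, Msmo1, Srebf2 and Stard4 joined the lower genes and Mylip the higher ones, while Fdft1, Sc5d and Nr1h3 lost their calls, so 12 of the 15 were shared.

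**Figure D2:**
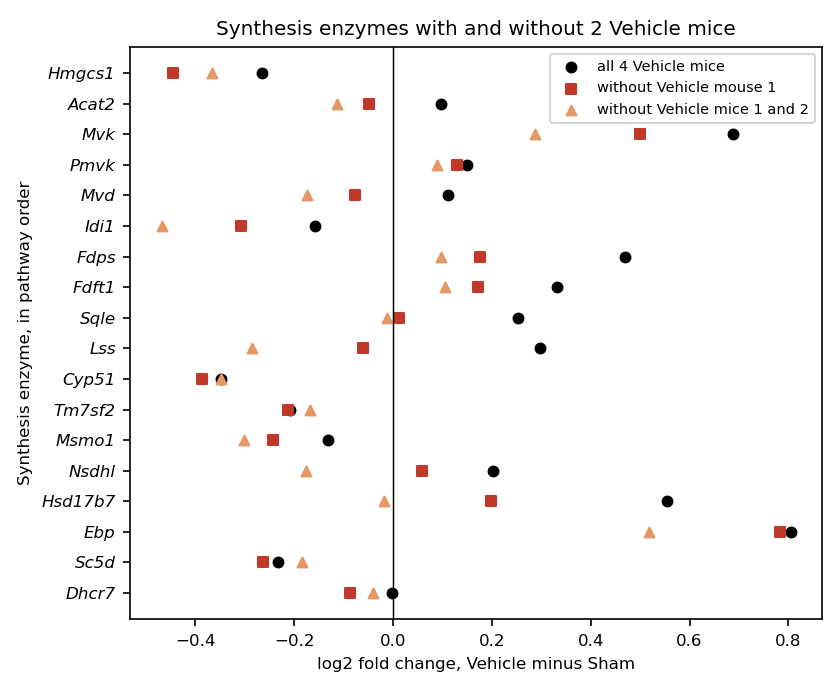
Each row is a synthesis enzyme and the x axis is its log2 fold change between the Vehicle and Sham groups, with circles for all 4 Vehicle mice, squares without Vehicle mouse 1 and triangles without Vehicle mice 1 and 2. Mvk and Ebp stay to the right of 0 and Cyp51 to the left in all 3 sets, while Acat2, Mvd and Lss cross 0 once Vehicle mouse 1 is left out.

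The proximal promoters of 4 synthesis genes are shown because Srebf factors bind the sterol regulatory element (SRE) with help from the NF-Y factor, which binds CCAAT. They are the 250 bases before the RefSeq start site on the GRCm38.p6 assembly, written 5′ to 3′ on the strand of the gene, and capitals mark the SRE core and CCAAT or its reverse complement ATTGG. Hmgcs1 is shown for its SRE core, Mvk and Ebp for their rise in the Vehicle group, and Hsd17b7 because it was among the enzymes highest in Vehicle mouse 1. The windows are chr13:119690101-119690350 (plus strand), chr5:114444019-114444268 (plus strand), chrX:8193513-8193762 (minus strand) and chr1:169969206-169969455 (minus strand).
Hmgcs1: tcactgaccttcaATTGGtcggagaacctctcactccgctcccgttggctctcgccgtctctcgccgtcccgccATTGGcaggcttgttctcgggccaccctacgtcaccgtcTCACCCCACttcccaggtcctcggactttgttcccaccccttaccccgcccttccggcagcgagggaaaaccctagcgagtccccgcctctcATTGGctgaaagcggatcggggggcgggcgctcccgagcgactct
Mvk: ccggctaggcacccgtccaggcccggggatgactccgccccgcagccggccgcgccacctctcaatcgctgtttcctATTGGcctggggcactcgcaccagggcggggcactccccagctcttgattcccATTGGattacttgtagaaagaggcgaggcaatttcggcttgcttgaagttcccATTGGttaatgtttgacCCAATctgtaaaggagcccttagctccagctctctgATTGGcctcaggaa
Ebp: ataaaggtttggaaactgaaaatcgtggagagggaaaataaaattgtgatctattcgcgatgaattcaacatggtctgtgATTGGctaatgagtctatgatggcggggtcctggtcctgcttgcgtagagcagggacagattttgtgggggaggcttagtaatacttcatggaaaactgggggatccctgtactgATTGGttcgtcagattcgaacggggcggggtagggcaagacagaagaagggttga
Hsd17b7: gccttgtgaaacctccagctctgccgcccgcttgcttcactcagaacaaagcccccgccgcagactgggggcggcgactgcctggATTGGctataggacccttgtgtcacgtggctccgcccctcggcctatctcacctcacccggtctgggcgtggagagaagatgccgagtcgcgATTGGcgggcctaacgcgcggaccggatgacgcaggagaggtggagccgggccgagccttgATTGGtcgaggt
RefSeq promoters from 250 bases before to 50 after the start were matched for 29 of the 35 genes, among them 15 of the 18 synthesis enzymes. Here and below a gene is counted if any of its promoters matched, while shares of all promoters count single promoters. These are unlike measures for genes with several promoters. The SRE core, searched as TCACNCCAC on both strands, was found in Hmgcs1 alone, as TCACCCCAC at position -137, where 1.24% of 32851 promoters hold it. CCAAT was found on either strand in 14 of 15 enzymes and 9 of the other 14 cholesterol genes, against 37.4% of all promoters. The Sp1 box, GGGCGG, was found in 14 of 15 enzymes and 11 of the other 14 genes, against 35.7% of all promoters. Mvk held CCAAT at 5 positions, from -173 to -14 of its start. These matches describe letters in the window and no binding was measured.

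The sensing and LXR genes were led by Srebf1, the factor that drives fatty acid and sterol genes and is itself an LXR target. It measured 67.5, 72.4, 71.8 and 75.1 CPM in the Sham mice, 113, 134, 118 and 119 CPM in the Vehicle mice and 91.2, 113, 106 and 92.0 CPM in the LJP mice. All Vehicle and LJP mice lay above all Sham mice. Between the Vehicle and Sham groups its log2 fold change was 0.75 (SE 0.09, adjusted p = 0.00014), and 0.72 without Vehicle mice 1 and 2. Nr1h3, the LXR alpha of macrophages, rose by 0.55 on the log2 scale (SE 0.19, adjusted p = 0.034) from a low level of 2.62 to 3.62 CPM in the Sham group to 3.88 to 6.02 CPM in the Vehicle group, a call that was lost without Sham mouse 1 or 2 or Vehicle mouse 2 or 3, and without Vehicle mouse 2 the log2 fold change was 0.41 (adjusted p = 0.10). Insig2 was the only gene of this role that fell, by 0.29 on the log2 scale (SE 0.07, adjusted p = 0.0085), from 37.4 to 39.9 CPM in the Sham group to 29.1 to 34.4 CPM in the Vehicle group.

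The other 5 genes of this role did not pass the test in the Vehicle group. Srebf2, the main factor for synthesis genes, ranged from 337 to 354 CPM in the Sham group and from 225 to 365 CPM in the Vehicle group, with the highest value in Vehicle mouse 1 and the lowest in Vehicle mouse 2 (log2 fold change -0.19, adjusted p = 0.20). Insig1, which the Srebf factors induce, ranged from 63.6 to 70.1 CPM and from 58.1 to 118 CPM, and here too Vehicle mouse 1 was the highest. Scap, Nr1h2 (LXR beta) and Mylip, a ubiquitin ligase for lipoprotein receptors induced by LXR, had log2 fold changes of 0.16, 0.16 and 0.29, with adjusted p-values of 0.11, 0.12 and 0.076.

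Transport and storage genes rose in the Vehicle group, 4 of 5 of them, where 22.7% of all genes tested rose. Lipa, the lysosomal acid lipase that frees cholesterol from its esters, measured 14.6, 13.4, 13.5 and 13.3 CPM in the Sham mice, 29.1, 64.1, 23.1 and 30.8 CPM in the Vehicle mice and 23.4, 16, 30.4 and 17.1 CPM in the LJP mice. Vehicle mouse 2 was the highest of all 12 mice, and all Vehicle mice lay above all Sham mice. Vehicle differed from Sham by a log2 fold change of 1.43 (SE 0.29, adjusted p = 0.0029), and without Vehicle mice 1 and 2 it was 0.97. Npc2, which hands cholesterol to Npc1 inside the lysosome, measured 46.3, 55.0, 50.1 and 54.3 CPM in the Sham mice, 89.1, 149, 93.4 and 106 CPM in the Vehicle mice and 91.7, 58.8, 100 and 68.4 CPM in the LJP mice. The Vehicle mice did not overlap with the Sham mice, and neither did the LJP mice. Between the Vehicle and Sham groups the log2 fold change was 1.09 (SE 0.18, adjusted p = 0.0011), and without Vehicle mice 1 and 2 it was 0.95.

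Soat1, which esterifies cholesterol for storage in droplets, rose by 0.67 on the log2 scale (SE 0.16, adjusted p = 0.0062), from 21.0 to 25.7 CPM in the Sham group to 30.8 to 43.7 CPM in the Vehicle group. Npc1, the lysosomal membrane transporter, rose by 0.30 (SE 0.09, adjusted p = 0.024), with 68.9 to 78.3 CPM in the Sham group and 77.0 to 101 CPM in the Vehicle group, which overlapped through Vehicle mouse 1. Its call was lost without Vehicle mouse 3 and without Vehicle mouse 4, and also without Sham mouse 1 or 3, with adjusted p-values of up to 0.077. Stard4, a sterol carrier of the cytosol, did not pass the test (log2 fold change 0.16, SE 0.21, adjusted p = 0.57). Vehicle mouse 1 held 44.6 CPM of Stard4 against 19.7 and 20.7 CPM in Vehicle mice 3 and 4, as the synthesis enzymes did, and without Vehicle mice 1 and 2 its log2 fold change was -0.36 (adjusted p = 0.011).

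Of the efflux transporters, Abca1 rose and Abcg1 did not pass the test. Abca1, which loads cholesterol onto lipid-poor apolipoproteins, measured 38.8, 43.6, 40.4 and 37.1 CPM in the Sham mice, 111, 144, 105 and 108 CPM in the Vehicle mice and 92.1, 72.8, 109 and 62.0 CPM in the LJP mice. No Vehicle or LJP mouse overlapped with a Sham mouse. Its log2 fold change between the Vehicle and Sham groups was 1.55 (SE 0.16, adjusted p = 9.6e-05), the smallest adjusted p of the 35 genes, and without Vehicle mice 1 and 2 it was 1.41. Abcg1, which exports cholesterol to mature lipoprotein particles and is also an LXR target, measured 108 to 113 CPM in the Sham group and 92.2 to 114 CPM in the Vehicle group (log2 fold change -0.14, SE 0.07, adjusted p = 0.13), and without Vehicle mouse 3 it was called, at -0.20.

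The oxysterol enzymes moved in opposite directions. Ch25h, a single-exon enzyme of activated myeloid cells that makes 25-hydroxycholesterol, measured 0.29, 0.71, 0.55 and 0.57 CPM in the Sham mice, 14.8, 18.9, 6.35 and 6.14 CPM in the Vehicle mice and 6.00, 3.12, 10.3 and 3.01 CPM in the LJP mice. Every Vehicle and LJP mouse lay above every Sham mouse. It was the only one of the 35 genes that would not pass the filter on low counts in the Sham mice alone, so it entered the test through the groups in which it was high. The log2 fold change between the Vehicle and Sham groups was 4.43 (SE 0.55, adjusted p = 0.0002), and without Vehicle mice 1 and 2 it was 3.53. In the GENCODE annotation 11.5% of its exon bases lie opposite another gene, which is absent from the deposited counts.

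Cyp46a1, the neuronal enzyme that turns cholesterol into 24S-hydroxycholesterol and so removes it from the brain, fell. It measured 250, 261, 265 and 275 CPM in the Sham mice, 161, 125, 196 and 192 CPM in the Vehicle mice and 212, 223, 178 and 221 CPM in the LJP mice. All Vehicle and LJP mice lay below all Sham mice. Its log2 fold change between the Vehicle and Sham groups was -0.64 (SE 0.13, adjusted p = 0.0025), and -0.44 without Vehicle mice 1 and 2.

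The promoters of Abca1 and Ch25h are shown in the same way, since they are the genes with the largest log2 fold changes between the Vehicle and Sham groups. Abca1 (Entrez Gene 11303) spans bases 53030789 to 53159988 of chromosome 4 and Ch25h (Entrez Gene 12642) bases 34473783 to 34475148 of chromosome 19 on GRCm38. The windows shown are chr4:53159896-53160145 and chr19:34475149-34475398, both on the minus strand of GRCm38.p6. Neither holds the SRE core or CCAAT, and the capitals in Abca1 mark a direct repeat with the spacing of an LXR element.
Abca1: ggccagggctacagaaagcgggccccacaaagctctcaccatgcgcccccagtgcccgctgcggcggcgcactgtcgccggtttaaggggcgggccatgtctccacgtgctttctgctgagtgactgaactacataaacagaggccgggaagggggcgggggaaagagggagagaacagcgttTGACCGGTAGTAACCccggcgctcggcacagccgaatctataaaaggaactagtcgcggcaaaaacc
Ch25h: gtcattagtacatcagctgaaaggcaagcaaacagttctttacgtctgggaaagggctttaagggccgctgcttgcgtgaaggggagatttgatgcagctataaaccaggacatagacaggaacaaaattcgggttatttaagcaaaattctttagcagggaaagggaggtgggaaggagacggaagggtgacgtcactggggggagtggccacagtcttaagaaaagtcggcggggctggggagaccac
LXR binds a direct repeat, which was searched on both strands in a strict and a relaxed form. The strict form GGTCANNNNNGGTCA was in 0 of the 29 promoters matched and in 0.0761% of all promoters. The relaxed form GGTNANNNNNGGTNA, which includes the strict one and was added after the Abca1 window had been read, was in 2 of 29, Abca1 at position -67 and Srebf1 at -182, and in 0.718% of all promoters. A match describes letters and not binding. Abca1 also held the Sp1 box at positions -163 and -97.

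**Figure D3:**
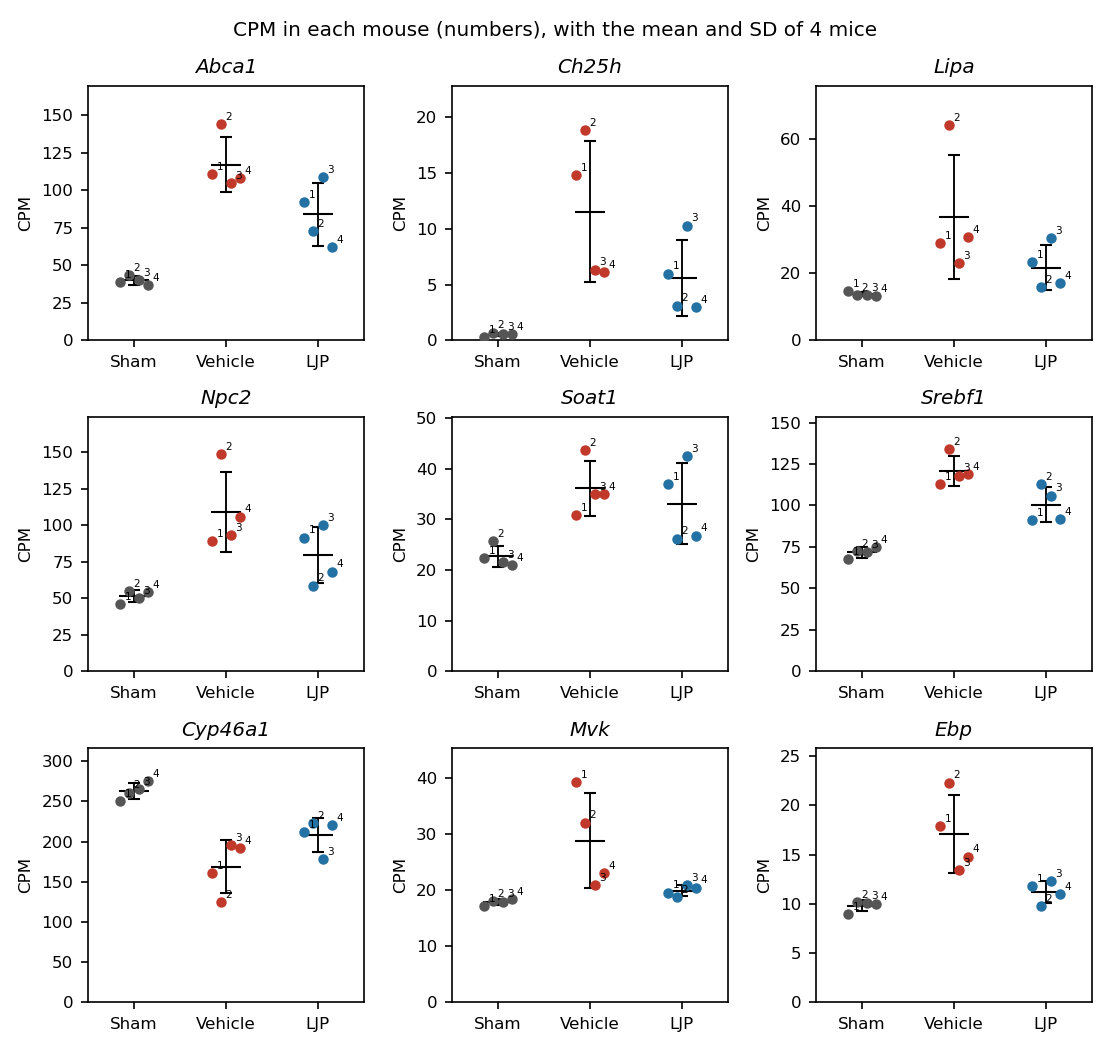
Each panel plots CPM of a gene in the 12 mice, with a point and number for each mouse and a bar and whiskers for the mean and SD of 4 mice per group. Vehicle mouse 2 is the highest mouse for Abca1, Ch25h, Lipa, Npc2, Soat1, Srebf1 and Ebp and the lowest for Cyp46a1, and Vehicle mouse 1 is the highest for Mvk. Of all genes tested, Vehicle mouse 2 was the highest of the 12 mice in 29.4% and the lowest in 27.9%.

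Markers of other cell types moved with these genes, and their part in the results was not tested. The marker counts for Vehicle against Sham stand beside 39.9% of all genes tested (22.7% higher and 17.3% lower). Macrophage and monocyte markers rose in the Vehicle group, 6 of 6, led by Lyz2 and F13a1, although Ms4a7 and Ccr2, with counts of 2 to 7 in the Sham mice, passed the filter only through the other groups, which leaves 4 that passed it in the Sham mice alone. The summed level of the 6 was 16.2 to 24.5 CPM in the Sham group and 69.7 to 322 CPM in the Vehicle group, highest in Vehicle mouse 2. In the LJP group their sum was 27.9 to 105 CPM, highest in LJP mouse 3, which was also the highest LJP mouse for Abca1, Ch25h, Lipa, Npc2 and Soat1. Microglia markers rose, 4 of 6, among them Sall1, with sums of 199.5 to 206 CPM in the Sham group, 254 to 562 CPM in the Vehicle group and 345 to 599 CPM in the LJP group, and Vehicle mouse 1 was the lowest Vehicle mouse. Neutrophil markers were not tested in edgeR, 0 of 6, since the filter asks for counts in more of the mice than had them. DESeq2, run with no such filter, called 4 of 5 higher for Vehicle against Sham and 4 of 5 lower for LJP against Vehicle. The shares of all genes called by DESeq2 in either direction were 36.4% and 13.2%. These calls rest on genes that were high mainly in Vehicle mice 1 and 2, and they are not counted as support. The sum of the 6 neutrophil markers was 0.27 to 0.52 CPM in the Sham mice and 0.15 to 1.12 CPM in the LJP mice. In Vehicle mice 1 to 4 it was 147, 34.1, 0.70 and 5.07 CPM, so Vehicle mouse 1 was the highest for these markers as for the synthesis enzymes. In the Sham and LJP mice 2 to 4 of the 6 neutrophil markers were at 0, and 1 of 6 was at 0 in Vehicle mouse 3. Of the macrophage markers 1 of 6 was at 0 in LJP mouse 4. Of the 6 neuron markers 2 fell, Syt1 and Snap25. The sum of the 6 was 3487 to 5317 CPM in the Vehicle group, lowest in Vehicle mouse 2. That mouse was also the lowest for Cyp46a1, as it was in 27.9% of all genes tested. Of 6 endothelial markers 3 rose. Their sum was 226 to 247 CPM in the Sham mice, 542.5, 1135, 307 and 330 CPM in Vehicle mice 1 to 4 and 231 to 279 CPM in the LJP mice. Vehicle mouse 2 was thus the highest, as for Abca1, Lipa and Npc2 and as in 29.4% of all genes tested. Between LJP and Vehicle edgeR called 0 of the 6, 5 were lower at an unadjusted p below 0.05, as 17.4% of all genes were, and DESeq2 called 4 lower, where 13.2% of all genes were called in either direction. Among other markers, 2 of 4 oligodendrocyte precursor markers rose, 1 of 6 oligodendrocyte markers rose, and of 6 astrocyte markers 1 rose and 2 fell. Of 5 choroid plexus markers edgeR called 0 in any comparison, as did DESeq2. At an unadjusted p below 0.05 in edgeR there were 0 between Vehicle and Sham and 0 between LJP and Vehicle, where 29.7% of all genes were. Between LJP and Sham there were 2, both lower, against 18.8% of all genes. The sums were 30.7 to 900 CPM in the Sham group, 19.3 to 526 CPM in the Vehicle group and 21.2 to 384 CPM in the LJP group.

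**Figure D4:**
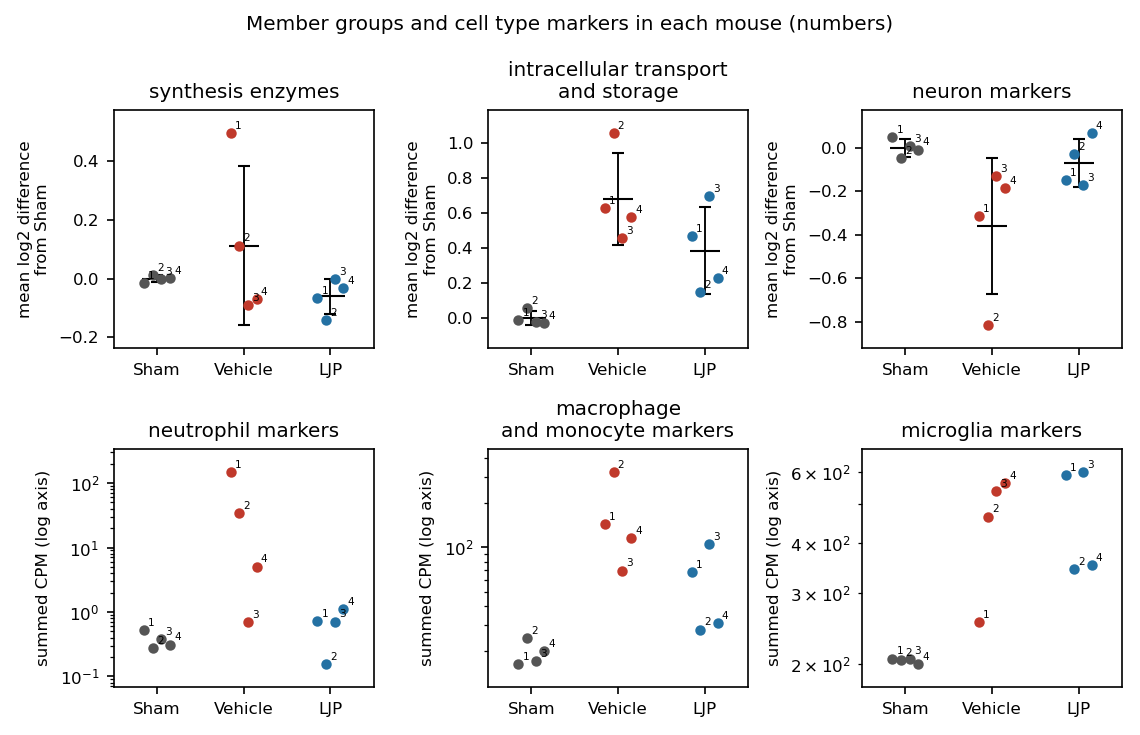
The upper panels plot, for each mouse, the mean log2 difference from the Sham mean over the synthesis enzymes, the transport and storage genes and the neuron markers, with the mean and SD of 4 mice per group, and the lower panels plot summed CPM of neutrophil, macrophage and microglia markers on log axes. Vehicle mouse 1 is the highest for the synthesis enzymes (0.50) and the neutrophil markers (147 CPM), and Vehicle mouse 2 for transport and storage (1.05) and the macrophage markers (322 CPM).

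In further lists of the pathway, 22 of the 65 genes tested were called in the Vehicle group, 13 higher and 9 lower, a share of 33.8% against 39.9% of all genes. Of the 12 lipogenic targets of Srebf1 a single gene was called and it fell, Elovl6, a fatty acid elongase, with a log2 fold change of -0.55 (SE 0.10, adjusted p = 0.0020), while Srebf1 itself rose. Of 10 LXR partners and genes of lipid-loaded phagocytes 4 rose and 1 fell. Apoc2, 1 of the 4, had counts of 0, 0, 0 and 1 in the Sham mice and passed the filter on low counts only through the other groups, so its call is not counted as support. Of the 63 genes of the further lists that passed the filter in the Sham mice alone 21 were called (33.3%). Arl4c, an LXR target, rose by 0.45 on the log2 scale (SE 0.08, adjusted p = 0.0011) and Rxrg, a partner receptor, fell by 2.40 (SE 0.45, adjusted p = 0.0020), from 46.1 ± 2.54 CPM (SD, n = 4) in the Sham group to 8.83 ± 5.78 CPM (SD, n = 4) in the Vehicle group.

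Of 18 sterol transfer proteins and lipoprotein receptors 5 rose and 5 fell, among them Osbpl8, a lipid exchanger at membrane contacts, by a log2 fold change of -1.01 (adjusted p = 0.0008), and Vldlr, a lipoprotein receptor, by -0.58 (adjusted p = 0.0025). In the list of Srebf processing and degradation in the endoplasmic reticulum, 2 of 8 genes were called, among them Erlin2, and both rose. In the isoprenoid branch 2 of 12 were called, Ggps1 and Coq2, which use the same precursors for geranylgeranyl groups and ubiquinone, and both fell. Of 5 other enzymes of oxysterols and bile acids 2 rose, Hsd3b7 by 1.45 (SE 0.27, adjusted p = 0.0019) and Por, the electron donor of the cytochromes, by 0.50 (adjusted p = 0.0023).

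The comparison of LJP with Vehicle asks whether treatment moved these genes after occlusion, and it shares the Vehicle mice with the comparison above. None of them passed the test in edgeR, 0 of 35, where 0.0228% of all genes tested were called. At an unadjusted p below 0.05 there were 10, against 29.7% of all genes (17.4% lower and 12.3% higher), 8 of them lower in the LJP group (Mvk, Ebp, Srebf1, Scap, Npc2, Lipa, Abca1 and Ch25h) and 2 higher (Insig2 and Cyp46a1). Their adjusted p-values lay between 0.068 and 0.16. With DESeq2 4 of the 35 genes were called, Mvk, Ebp and Abca1 lower and Insig2 higher, where 13.2% of all genes were called. In edgeR 4 were called without Vehicle mouse 3 (Mvk, Ebp, Lipa and Abca1), where 21.6% of all genes were called, and 2 without Vehicle mouse 4 (Mvk and Ebp), where 11.7% were, all lower.

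Ebp was the only one of the 35 genes in which the LJP and Vehicle mice did not overlap, and it was lower in the LJP group, as 5.91% of all genes tested were without overlap. Its log2 fold change between the LJP and Vehicle groups was -0.61 (SE 0.15, adjusted p = 0.068). For Mvk the log2 fold change was -0.53 (SE 0.16, adjusted p = 0.076), with Vehicle mice 3 and 4 at 20.9 and 23.1 CPM next to LJP mice at 18.8 to 21.0 CPM. For Abca1 it was -0.48 (SE 0.16, adjusted p = 0.085), and LJP mouse 3, at 109 CPM, lay within the range of the Vehicle mice. For Lipa it was -0.76 (SE 0.28, adjusted p = 0.11) and for Ch25h -1.05 (SE 0.44, adjusted p = 0.14), with both groups overlapping. For Cyp46a1 it was 0.30 (SE 0.13, adjusted p = 0.14), and LJP mouse 3 was again the nearest to the Vehicle mice, at 178 CPM. Without Vehicle mice 1 and 2 all of these were nearer to 0, at -0.33 for Ebp, -0.14 for Mvk, -0.35 for Abca1, -0.31 for Lipa, -0.16 for Ch25h and 0.099 for Cyp46a1, with adjusted p-values of 0.28 to 0.89. Without Vehicle mouse 1 Mvk was -0.35, and without Vehicle mouse 2 Lipa was -0.35.

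The median log2 fold change of the 35 genes between the LJP and Vehicle groups was -0.19, and without Vehicle mouse 1 it was -0.04. For the 18 synthesis enzymes it was -0.21 with all mice, with 15 of 18 negative where 49.8% of all genes were positive, and -0.03 without Vehicle mouse 1, with 12 of 18 negative. Without Vehicle mice 1 and 2 it was 0.05, with 6 of 18 negative. At an adjusted p below 0.05 edgeR called 0 of the 65 genes tested in the further lists, where 16 had an unadjusted p below 0.05 and DESeq2 called 3, against 0.0228%, 29.7% and 13.2% of all genes.

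**Figure D5:**
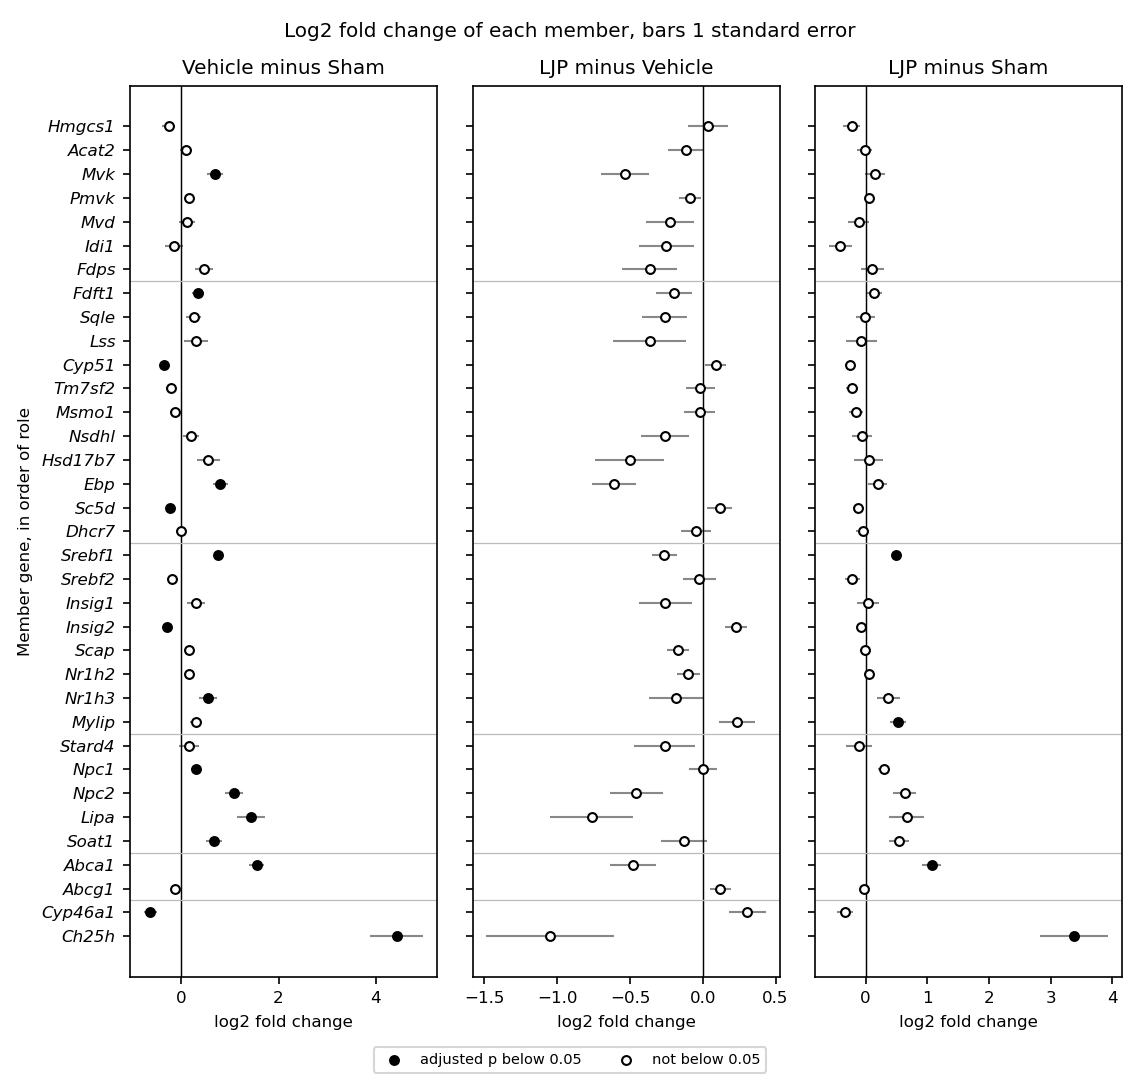
Each panel plots the log2 fold change of the 35 genes in 1 comparison, with a bar of 1 standard error on either side, filled where the adjusted p was below 0.05, and the x axes differ between panels. The left panel has 15 filled points, the middle panel 0 and the right panel 4.

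Between the LJP and Sham groups, 4 of the 35 genes were called, Srebf1, Mylip, Abca1 and Ch25h, all higher, against 4.75% of all genes tested (3.85% higher). Without Ch25h, whose low Sham counts let it pass the filter only through the other groups, 3 of 34 were called. This comparison shares the Sham mice with that of Vehicle and Sham. The 2 groups did not overlap for 9 genes that were higher and 5 that were lower in the LJP group, against 24.9% of all genes (12.9% higher and 12% lower). Abca1 had a log2 fold change of 1.07 (SE 0.16, adjusted p = 0.0024), Ch25h of 3.38 (SE 0.55, adjusted p = 0.0040) and Srebf1 of 0.49 (SE 0.09, adjusted p = 0.0057). Mylip, at 17.8 to 21.5 CPM in the Sham group and 24.2 to 33.0 CPM in the LJP group, had a log2 fold change of 0.53 (SE 0.12, adjusted p = 0.031), which lost its call when any Sham mouse or LJP mouse 1 or 3 was left out (adjusted p up to 0.12).

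In the transport and storage role, Npc2, Lipa, Soat1 and Npc1 had log2 fold changes of 0.63, 0.66, 0.55 and 0.30 between the LJP and Sham groups, with adjusted p-values of 0.074, 0.24, 0.076 and 0.096, and no LJP mouse overlapped with a Sham mouse in any of the 4. Of the synthesis enzymes 0 of 18 were called by edgeR, 2 had an unadjusted p below 0.05 (Cyp51 and Tm7sf2), against 18.8% of all genes, and DESeq2 called 1, against 7.55% of all genes. Cyp51 had a log2 fold change of -0.26 (SE 0.07, adjusted p = 0.069), and Idi1 of -0.41 (SE 0.19, adjusted p = 0.27). The count of 4 genes, where 4.75% of all genes were called, was 10 without Vehicle mouse 2 (7 higher and 3 lower). It was 13 without Vehicle mice 1 and 2 (8 higher and 5 lower). In a fit of the Sham and LJP mice only it was 12 (8 higher and 4 lower). The shares of all genes called in these fits were 13.3%, 24.3% and 23.8%.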

How the data were processed

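Poly(A) RNA of 12 hemispheres was sequenced by the authors, who deposited raw counts per gene and mouse. Per the labels, featureCounts and DESeq2 were used; GRCm39 and mm10 are both named as builds, and gene positions in the table match GRCm38. The aligner and the strand setting are not given in the sources used here. The gene lengths in the deposited table were used for TPM. Exon overlaps came from the GENCODE annotation of GRCm38, whose exon lengths differ from the deposited gene lengths.

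The counts of all 12 mice entered 1 quasi-likelihood model of edgeR 4.0.16 (R 4.3.3) with the 3 groups as its terms, after filterByExpr and TMM scaling. P-values over the 17558 genes tested were adjusted by the Benjamini-Hochberg method. Standard errors were the absolute log2 fold change over the root of F. Members of a group are separate mice per the labels. No 2 libraries were duplicates (lowest chi-square over its degrees of freedom 2.56). Floors cover counting error only. The fit was tested on simulated data.

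Alternatives were DESeq2 1.42.0, RLE and library size scaling, no filter, a fit of the 2 groups compared, a replicate block, the thresholds of the study's methods and leaving out each mouse. Leaving out Vehicle mice 1 and 2 together was chosen after seeing the data. The 35 genes, the further lists and the markers were chosen with earlier results of these data known. Values per mouse were given for genes with an adjusted p below 0.05 and an absolute log2 fold change over 1, for the gene with the smallest p of each role and comparison, and for Hmgcs1, chosen after its values were seen. From each further list the 2 genes with the smallest p between Vehicle and Sham were named, apart from some genes that are not reported here.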

Additional observations from a re-analysis of the deposited data

Results flagged for a closer look

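For each of the 35 genes, the highest and lowest mouse of each group were compared with the rest by Dixon's ratio, the gap to the nearest mouse over the range of the group. It exceeded the 95% critical value for 4 mice in 6 of 105 groups, where chance gives 5.25. In the Vehicle group these were Sqle, highest in Vehicle mouse 1 at 99.7 CPM (ratio 0.946), Abca1, highest in Vehicle mouse 2 at 144 CPM (0.864), and Sc5d, lowest in Vehicle mouse 2 at 39.7 CPM (0.847). In the Sham group they were Abcg1, lowest in Sham mouse 1 at 108 CPM (0.922), and Lipa, highest in Sham mouse 1 at 14.6 CPM (0.83). In the LJP group it was Nr1h2, highest in LJP mouse 2 at 64.3 CPM (0.901).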

How the results depend on the processing

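Between the Vehicle and Sham groups, the count of 15 genes was 14 with DESeq2 and 14 with RLE scaling. It was 12 without the filter and 12 in a fit of the 2 groups. The shares of all genes called in these 4 fits were 36.4%, 40.1%, 21.2% and 30.7%, against 39.9% in the main fit. The count was 13 with the replicate block (34.8% of all genes) and 11 to 16 when a mouse was left out (29.5% to 45.9%). It was 9 at the thresholds of the study's methods, which 21.7% of all genes passed. With library size scaling it was 20, 17 higher and 3 lower, against 11 higher and 4 lower, and 40.1% of all genes were called. Fdft1, Sc5d, Nr1h3 and Npc1 were the only genes of the 15 that lost their call under these alternatives, the study's thresholds aside. Between LJP and Vehicle the count of 0 was 4 with DESeq2 and 1 at the study's thresholds (Ebp), which 13.2% and 6.97% of all genes passed. It was 0 with the replicate block (0.0114% of all genes) and 0 to 4 when a mouse was left out (0.0167% to 21.6%). Between LJP and Sham the count of 4 was 7 with DESeq2, 12 in a fit of the 2 groups and 13 without Vehicle mice 1 and 2. The shares of all genes called there were 7.55%, 23.8% and 24.3%. The count was 3 with the replicate block (2.64% of all genes) and 3 to 10 when a mouse was left out (2.2% to 13.3%). RLE scaling, library size scaling and no filter gave 0 for LJP against Vehicle, where 0.0228% to 1.96% of all genes were called. For LJP against Sham they gave 4 to 5, where 2.76% to 5.05% of all genes were called. Same-numbered mice did not deviate together in expression (correlations of -0.32 to 0.11). These correlations cannot show whether the numbers pair the mice in some other way.

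Between Vehicle and Sham, 9 uncalled log2 fold changes changed sign. When a mouse was left out they lay between -0.049 and 0.16 for Acat2, -0.076 and 0.21 for Mvd, -0.061 and 0.45 for Lss, and -0.13 and 0.30 for Stard4, the negative end being without Vehicle mouse 1. Without Vehicle mice 1 and 2 they were -0.11 for Acat2, -0.17 for Mvd, -0.012 for Sqle, -0.28 for Lss, -0.18 for Nsdhl, -0.018 for Hsd17b7, -0.17 for Insig1 and -0.36 for Stard4. Dhcr7, near 0, was 0.073 with library size scaling, 0.0061 without the filter, 0.0007 in a fit of the 2 groups and -0.087 to 0.050 when a mouse was left out. The cause was not tested.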
